A study of Mus musculus with 11 samples.

Results

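The G protein alpha subunits other than Golf were followed in the newborn main olfactory epithelium (MOE) with and without Bcl11b. These are the 10 genes Gnas, Gnai1, Gnai2, Gnai3, Gnao1, Gnaz, Gnaq, Gna11, Gna12 and Gna13. They were read by 38 of the 45101 probe sets on the array, namely every probe set that the annotation assigns to exactly 1 gene symbol and to one of these genes, out of 18194 genes with such a probe set. Whole MOE was dissected at postnatal day 0 from 6 mice with a conventional Bcl11b knockout on both alleles (KO) and from 5 wild type mice, all labelled BALB/c. Each mouse gave 1 array. All wild type mice and 4 KO mice were male, and KO 3 and KO 6 were female. A conventional knockout removes Bcl11b, a zinc finger transcription factor, from every cell type of the animal, and the tissue holds sensory neurons, their precursors, supporting cells, glia, blood and stroma together. In such bulk tissue fewer cells of a type and less RNA per cell cannot be told apart.

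A heterotrimeric G protein carries the signal of a seven-transmembrane receptor into the cell. Its alpha subunit binds GTP when the receptor is activated, leaves the beta and gamma subunits and acts on an effector until the GTP is hydrolysed. Alpha subunits form families with different effectors: Gs and its close relative Golf (Gnal) stimulate adenylyl cyclase, the Gi/o family inhibits it, the Gq family activates phospholipase C beta, and the G12/13 family acts on the cytoskeleton. In mature olfactory sensory neurons (OSNs) odorant receptors signal through Golf, whereas Gs is the related stimulatory subunit of most other cells and of immature OSNs. In the vomeronasal organ, Go and Gi2 mark separate layers of sensory neurons.

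The values are array signals on a linear scale, set by the authors so that GAPDH reads 10000 on every array, and differences are given as KO minus wild type on the log2(signal + 16) scale. The brightest Bcl11b probe set lay between 560.5 and 1249.8 in KO and between 2694.3 and 4122.7 in wild type, so that every array matched its label. Median signals were 62 to 86.5 on KO arrays and 56.6 to 85.7 on wild type arrays, and the ratio of 3' to 5' GAPDH signal, which grows as RNA degrades, was 1.82 to 2.70 in KO and 1.88 to 2.27 in wild type. Arrays also differed in the summed signal of 4 probe sets for spiked poly-A control transcripts, which was higher on KO 4, KO 5, KO 6, WT 1 and WT 2 (2384.4 to 3031.5) than on the other 6 arrays (1441.1 to 1949.9). The arrays of higher control signal also had the highest median signals, 75.6 to 86.5 against 56.6 to 75.2 on the other 6. A pattern along this division therefore cannot be told apart from a difference in overall signal between arrays. The test took in 33662 probe sets and called 153 (limma, adjusted p under 0.05), 82 of them higher in KO and 71 lower. Of 11 tested markers of mature OSNs, 3 fell (Stoml3, Ncam2 and Cnga4). All 11 estimates were negative, with a median log2 change of -0.37. The summed signal of the 11 was 8362.5 to 12414.4 in KO and 13220.4 to 16931.9 in wild type. Much of that sum came from Ebf2, which did not pass, and Stoml3 (mean signals 4098 and 3241). None of 14 markers of immature OSNs passed the test. Of 6 tested erythroid markers, 2 embryonic globin genes (Hbb-y and Hbb-bh1) rose.

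Gnai1 was the member that changed. It rose in the KO on 2 of its 3 probe sets, by 1.58-fold on the brightest, and no probe set of the other 9 genes passed the test in either direction. Of the 38 probe sets, 33 had a mean signal of at least 20 and were tested. Of these 2 were higher, 0 were lower and 31 did not pass, whereas 0.455% of all tested probe sets passed in either direction and 0.244% were higher. Both calls came from the same gene. The 5 probe sets that were too dim to test belonged to Gnas (2), Gnao1 (1) and Gna12 (2). An unadjusted p under 0.05 was found for 4 of the 33 member probe sets, against 6.92% of all, and the arrays of KO and wild type did not overlap on 2 of the 33, against 1.29% of all. The 4 were the 3 Gnai1 probe sets and the brightest of Gnas, and the 2 without overlap were the Gnai1 calls, so these counts rest mostly on 1 gene. The median log2 change was 0.14 over the tested member probe sets and 0.047 over all tested probe sets. Estimates were positive for 24 of the member probe sets and negative for 9, where 60.4% of all probe sets had a positive estimate.

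**Figure D1:**
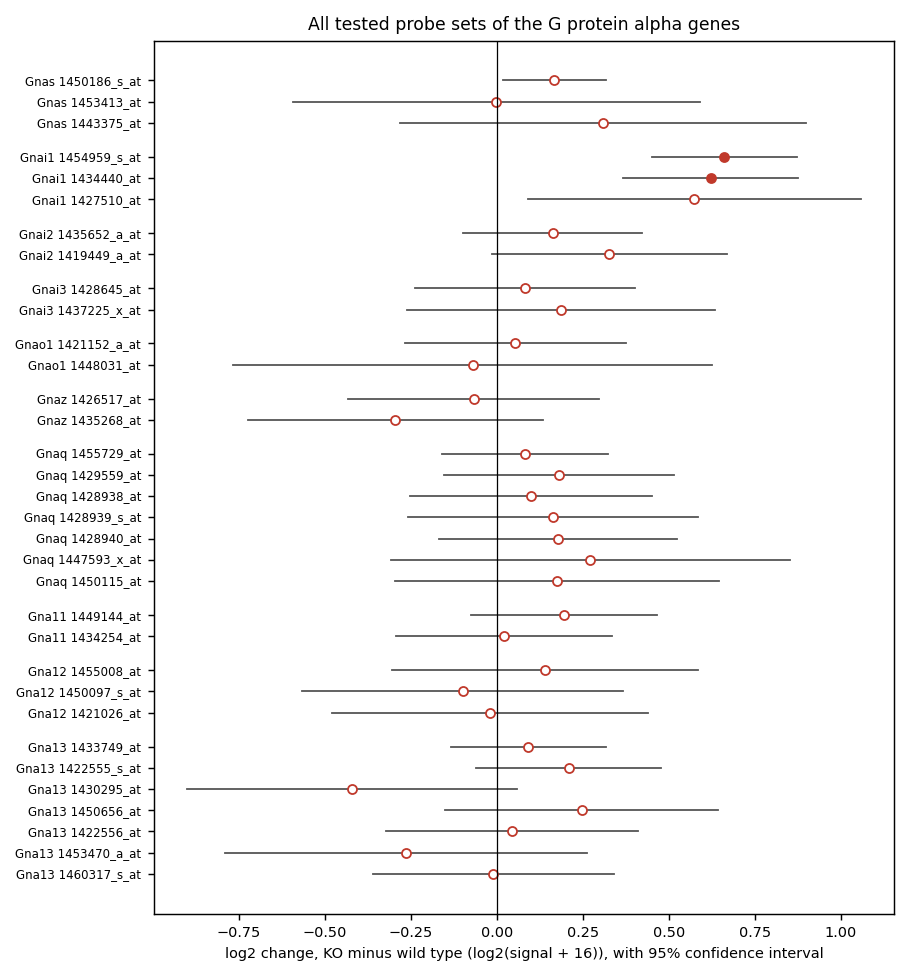
log2 change (KO minus wild type, on the log2(signal + 16) scale) of the 33 tested probe sets of the 10 genes, each named by gene and probe set, with lines for the 95% confidence interval over 6 KO and 5 wild type arrays and filled points for an adjusted p under 0.05 (limma). The 2 filled points are Gnai1 probe sets at 0.66 and 0.62, and 24 of the 33 points lie above 0.

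The Gi family held the member that changed. Gnai1 encodes Gi1, an inhibitory alpha subunit of the nervous system. Its brightest probe set, 1454959_s_at, had a lowest signal of 3632.1, a median of 3942.8 and a highest signal of 4469.1 on the 6 KO arrays, against 2276.5, 2945.4, 2413.8, 2262 and 2863.6 on the 5 wild type arrays. Every KO array was thus above every wild type array, and the lowest KO array (KO 2) stood well above the highest wild type array (WT 2). The means were 4030 ± 302 (SD, n = 6) in KO and 2552 ± 328 (SD, n = 5) in wild type. The log2 change was 0.66 ± 0.10 (SE), with a 95% confidence interval of 0.45 to 0.87 (limma, adjusted p = 0.00280). The exact two-sided permutation test gave p = 0.00216, the smallest that 6 against 5 arrays can give. Any probe set without overlap reaches this p, as 1.29% of all tested probe sets did, so it restates the separation of the arrays. By p-value this probe set ranked at position 47 among all tested probe sets, but by size it was at position 77 of the 82 probe sets called higher. A probe set with a wider error needs a larger change to be called. The rank by size among calls therefore does not compare Gnai1 with all genes that rose.

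The second Gnai1 probe set, 1434440_at, lay between 1164.2 and 1544.8 in KO (median 1406.9) and at 861.4, 1074.5, 797.1, 808.3 and 941.8 in wild type. The groups did not overlap here either. Its log2 change was 0.62 ± 0.12 (SE; limma, adjusted p = 0.0233). It was designed on the same sequence record as the brightest probe set, so that the pair is not independent evidence. Its call was the less stable of the pair: it was lost when WT 1, WT 3, WT 4, WT 5, KO 1, KO 4 or KO 6 was left out, with adjusted p-values up to 0.108 in limma, while the change stayed between 0.58 and 0.69. Over all 30 alternatives run for it, the call was lost in 15, with a change of 0.44 to 0.76. The brightest probe set passed without any single array, with changes of 0.62 to 0.72 and adjusted p-values of at most 0.0158 in limma.

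The third probe set, 1427510_at, was dim and comes from another sequence record. It lay between 78.1 and 180.4 in KO (median 130.5) and at 107.4, 118.3, 56, 54 and 70.8 in wild type, so that the groups overlapped. The estimate of 0.57 ± 0.23 (SE) did not pass (limma, adjusted p = 0.571). On this probe set every array of higher poly-A control signal lay above every other array of its genotype. On 1434440_at the means leaned the same way in both genotypes (1468 against 1303 in KO, 968 against 849 in wild type), with arrays that overlapped.

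**Figure D2:**
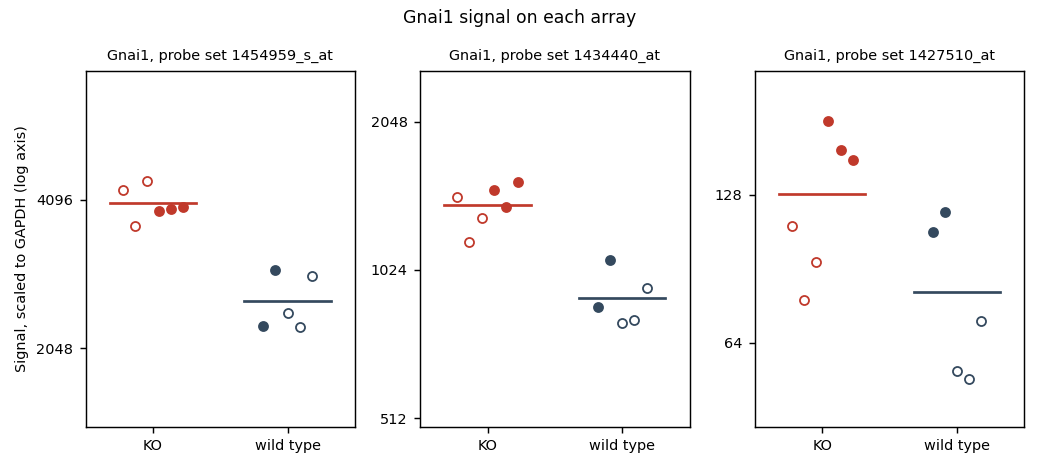
Signal of the 3 Gnai1 probe sets on each array (log axis, GAPDH set to 10000), KO in red and wild type in blue, with lines for the group means. Filled points are arrays with higher summed poly-A control signal (KO 4 to KO 6, WT 1 and WT 2) and open points the others; KO and wild type do not overlap on the 2 brighter probe sets and do on 1427510_at.

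Among arrays of like poly-A control signal the Gnai1 difference had about the same size. On the brightest probe set it was 0.60 among the arrays of higher control signal (3 KO, 2 wild type) and 0.72 among the others (3 KO, 3 wild type). With so few arrays an exact test cannot go below p = 0.1, and neither passed across all probe sets (limma, adjusted p = 0.220 and 0.153). Within a genotype the arrays of higher control signal differed from the others by -0.067 in KO and 0.050 in wild type. When males alone were compared the change was 0.63 (limma, adjusted p = 0.0125). It was 0.48 when arrays were scaled to the spiked hybridization controls instead of GAPDH, a scaling that moved the median of all probe sets from 0.047 to -0.11. Relative to that median Gnai1 was 0.61 higher with the GAPDH scaling and 0.59 higher with the control scaling. Markers of mature OSNs and embryonic globins moved between the same groups, and their part in the Gnai1 difference was not tested.

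Gnai2 encodes Gi2, which is found in many cell types, leukocytes among them, and in vomeronasal neurons. Its brightest probe set lay between 2427.2 and 3647.2 in KO (median 2963.9) and between 2292.3 and 3090.7 in wild type. The log2 change of 0.16 ± 0.12 (SE) did not pass (limma, adjusted p = 0.932), and its interval was -0.097 to 0.42. The groups overlapped, with KO 4 and KO 6 the highest arrays. Of 12 tested markers of macrophages and leukocytes none passed, and their summed signal was 7268.8 to 9548 in KO and 6935.3 to 8190.1 in wild type. The second Gnai2 probe set had a larger estimate, 0.33 ± 0.16 (SE), and did not pass either (limma, adjusted p = 0.754).

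Gnai3, the third Gi subunit, lay between 1934.7 and 3842.2 in KO (median 3181.5) and between 2408.5 and 3328.2 in wild type. KO arrays were here both the lowest (KO 3) and the highest (KO 6). The log2 change was 0.083 ± 0.15 (SE), with an interval of -0.24 to 0.40 (limma, adjusted p = 0.987). The 3 Gi genes are close relatives. On the brightest probe sets the interval of Gnai1 (0.45 to 0.87) lay above those of Gnai2 and Gnai3, but the second probe sets of Gnai2 (-0.013 to 0.67) and Gnai3 (-0.26 to 0.63) had intervals that overlapped it, and the differences between these changes were not tested.

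Promoters are shown for Gnai1, the gene that rose, and for its relative Gnai3, which did not pass, so that their starts can be read side by side. Both come from RefSeq (GRCm38.p6), run 5′ to 3′ on the gene's strand from 250 bases before to 50 bases after its start, and are written in lower case with each GC box (GGGCGG, the motif of Sp1) in capitals. Of the 10 genes, 8 had an entry in the promoter table and Gnai2 and Gnaz had none. Gnai1 lies at chr5:18360364-18360663 (minus strand) and Gnai3 at chr3:108146103-108146402 (minus strand).
Gnai1: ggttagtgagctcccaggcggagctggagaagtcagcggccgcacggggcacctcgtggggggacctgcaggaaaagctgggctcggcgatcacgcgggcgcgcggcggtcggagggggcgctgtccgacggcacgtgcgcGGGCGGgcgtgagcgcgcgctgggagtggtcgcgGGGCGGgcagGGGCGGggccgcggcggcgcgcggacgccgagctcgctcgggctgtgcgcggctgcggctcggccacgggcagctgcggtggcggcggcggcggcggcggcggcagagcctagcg
Gnai3: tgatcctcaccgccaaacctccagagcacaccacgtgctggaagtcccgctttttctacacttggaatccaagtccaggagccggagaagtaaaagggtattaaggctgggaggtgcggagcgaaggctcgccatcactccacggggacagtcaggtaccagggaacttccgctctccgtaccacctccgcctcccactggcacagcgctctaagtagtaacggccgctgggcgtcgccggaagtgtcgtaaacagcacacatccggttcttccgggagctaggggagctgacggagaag
The Gnai1 promoter was 80.0% G and C and held 3 GC boxes, and the Gnai3 promoter was 59.3% G and C and held 0. Members that did not pass held as many GC boxes or more: Gna12 held 7, Gnaq 5 and Gna13 3, while Gna11 held 2 and Gnao1 0, and the 4 Gnas entries held 0 to 3. Their G and C content reached 75.0% for Gnaq and Gna11, 76.3% for Gnao1, 76.7% for Gna13 and 81.7% for 1 Gnas entry, so that neither measure sets Gnai1 apart. Over all 32851 promoters of this length the median was 52.7% G and C, and 35.7% held a GC box on either strand. Each of the 2 promoters held 2 E-boxes (CANNTG), as 72.3% of all promoters held at least 1. Gnai3 also held 1 TGACG, the core of the cAMP response element, found in 20.8% of all promoters, and Gnai1 held 0. Neither held TATAAA (13.6% of all), TAATTA, a homeodomain core (5.29% of all), or TGACCA, a motif known for human BCL11A, the close relative of BCL11B (13.6% of all). Motifs were counted on both strands, a match is a description of letters only, and binding was not measured.

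Gnao1 and Gnaz complete the Gi/o family. Gnao1 encodes Go, an abundant alpha subunit of neurons. It lay between 738 and 1230.4 in KO (median 1130.7) and between 837.7 and 1243.8 in wild type, and its log2 change was 0.054 ± 0.15 (SE; limma, adjusted p = 0.990). The groups overlapped almost fully, and KO 2 was the lowest array. Gnaz encodes Gz, a neuronal subunit that resists pertussis toxin. It was dim, at 57.4 to 126.7 in KO (median 95.2) and 89 to 111.8 in wild type. Its log2 change was -0.067 ± 0.17 (SE; limma, adjusted p = 0.989), the only negative estimate among the brightest probe sets. Because Go and Gi2 also mark vomeronasal neurons, that list was read beside them: of its 8 genes 3 were tested and none passed, the receptor gene Vmn2r1 averaged 26.9 and the channel gene Trpc2 averaged 104, and the summed signal, mostly that of Meis2, was 1465.9 to 2615.7 in KO and 1162 to 1863.8 in wild type.

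Gnas encodes Gs, the stimulatory subunit closest to Golf. Its probe set 1450186_s_at was the brightest of the family. It had a lowest signal of 7455.9, a median of 7820.9 and a highest signal of 8630.1 in KO, against 7220.8, 7597.8, 6974.2, 6544 and 6965.6 in wild type. All KO arrays but KO 2 and KO 3 lay above the highest wild type array. Within each genotype the arrays of higher poly-A control signal lay above the others, by 0.12 in KO and 0.12 in wild type on the log2 scale, and the KO minus wild type change was 0.16 among them and 0.15 among the others. The arrays of higher control signal were also those of higher median signal over all probe sets. The log2 change of 0.17 ± 0.071 (SE) had an interval of 0.019 to 0.32 and an unadjusted p of 0.0294 in limma, and did not pass over all probe sets (adjusted p = 0.619). Gnas is an imprinted locus with several first exons, and these probe sets were not assigned to its transcripts. The other 2 tested Gnas probe sets were dim, at mean signals of 98.1 and 81.2, with estimates of -0.0011 and 0.31 that did not pass.

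**Figure D3:**
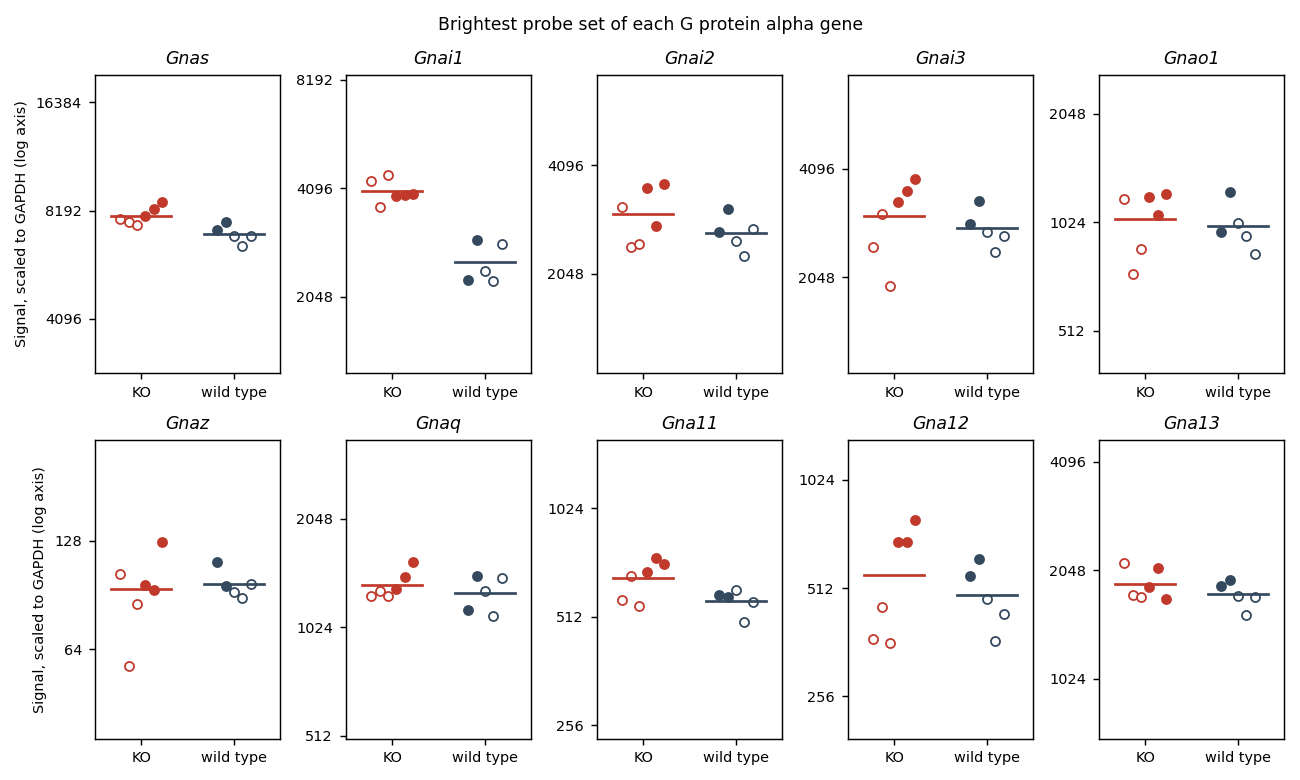
Signal of the brightest probe set of each of the 10 genes on each array (log axis, GAPDH set to 10000, the same fold range in every panel), KO in red to the left and wild type in blue, with lines for the group means and filled points for arrays with higher summed poly-A control signal. Gnai1 is the panel in which the groups lie apart, and in Gnas, Gnai3 and Gna12 all filled points lie above all open ones within each genotype.

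The Gq family was read by Gnaq and Gna11, both coupled to phospholipase C beta and widely expressed. Gnaq lay between 1245.5 and 1552.8 in KO (median 1301.8) and between 1100.2 and 1415.7 in wild type. The log2 change was 0.082 ± 0.11 (SE; limma, adjusted p = 0.979). All 7 Gnaq probe sets were tested, and their estimates ranged from 0.082 to 0.27 without a call; 3 of them share a sequence record. Gna11 lay between 547.1 and 743.8 in KO (median 671.9) and between 494.8 and 607.1 in wild type. Its log2 change of 0.19 ± 0.13 (SE) was the largest among the other brightest probe sets and did not pass (limma, adjusted p = 0.903), and its second probe set had 0.021. The lowest 2 KO arrays of Gna11, KO 3 and KO 1, lay within the wild type range.

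Gna12 and Gna13 make up the G12/13 family. Gna12 lay between 359.7 and 791.4 in KO (median 569.7) and at 554, 616.6, 478.2, 364.7 and 432.9 in wild type. KO arrays fell into a low and a high set of 3, and the high set was KO 4, KO 5 and KO 6. The arrays of higher poly-A control signal exceeded the others by 0.85 in KO and by 0.45 in wild type (log2 scale), the widest such gap among the 10 genes, followed by Gnai3 with 0.53 in KO and 0.25 in wild type. The KO minus wild type change of Gna12 was 0.14 ± 0.21 (SE; limma, adjusted p = 0.982), and within the arrays of higher and of lower control signal it was 0.29 and -0.10. No difference of genotype was called for Gna12, and its estimate differed in sign between the arrays of higher and of lower control signal.

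Gna13 gave a split picture over its 7 probe sets. The brightest, 1433749_at, lay between 1703.6 and 2142.8 in KO (median 1794.6) and between 1535.1 and 1927.1 in wild type, and changed by an estimated 0.092 ± 0.11 (SE; limma, adjusted p = 0.971). On 1430295_at, which comes from another sequence record, KO 1, KO 3 and KO 4 read 401.7, 462.6 and 512.4, whereas KO 2, KO 5 and KO 6 read 1102.9, 893.2 and 971.1, and wild type arrays read 818.5, 943.3, 985.9, 879 and 906.8. These 3 KO arrays thus lay below every wild type array on it, and the other 3 lay around the wild type values. Its estimate was -0.42 ± 0.23 (SE) and did not pass (limma, adjusted p = 0.813). A further probe set of the same record, 1453470_a_at, was low on the same KO arrays (106.9, 73.7 and 132.2, against 187.4 to 270.8 on the other KO arrays and 171.6 to 218.6 in wild type) and had -0.26 ± 0.25 (SE). The remaining 4 probe sets had estimates between -0.0096 and 0.25. Of the KO arrays that were low, KO 3 was from a female and KO 4 had the higher poly-A control signal, and the cause of the division was not tested.

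By mean signal over all 11 arrays the brightest probe sets stood in the order Gnas (7537), Gnai1 (3358), Gnai3 (2927), Gnai2 (2847), Gna13 (1820), Gnaq (1310), Gnao1 (1027), Gna11 (614), Gna12 (527) and Gnaz (95.4). Probes differ in how strongly they hybridize, so this is an order of array readings and not of transcript amounts. Within a gene, probe sets spanned wide ranges, for example 4.26 to 7537 for Gnas. Of the brightest probe sets, 9 of 10 had a positive estimate with the GAPDH scaling and 2 of 10 (Gnai1 and Gna11) with scaling to the hybridization controls. The control scaling moved all probe sets down together (the median by -0.16), so that small positive estimates turned negative under it, while those of Gna11 (0.19 and 0.015) and Gnaz (-0.067 and -0.23) kept their sign.

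Gnal, which encodes Golf, was set against each member on the same array. The brightest Gnal probe set lay between 1204.5 and 1618.3 in KO and between 2063.9 and 2632 in wild type, so that Gnal fell (log2 change -0.69 ± 0.11, SE; limma, adjusted p = 0.00545), while its other 2 probe sets did not pass. The log2 ratio of Gnal to the member was lower in KO for all 10 members (exact two-sided permutation test, Benjamini-Hochberg adjusted p = 0.00433 to 0.0173 over the 10). A linear scaling of an array bears on this ratio only through the added 16. Each difference in ratio is the change of Gnal less that of the member. Since Gnal was known to be lower by more than any member was, the direction was fixed by the call of Gnal, and the lower ratios for the most part restate it and are no independent result about a member.

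The widest gap was that to Gnai1. With the wild type mean set to 0, the Gnal to Gnai1 log2 ratio was -1.72 to -1.10 on KO arrays and -0.30 to 0.28 on wild type arrays, a difference of -1.36. For Gna11, Gnas, Gnai2, Gna12, Gna13, Gnai3, Gnaq and Gnao1 the difference lay between -0.89 and -0.75. Gnal to Gnas, the pair of stimulatory subunits, differed by -0.86, with -1.08 to -0.62 on KO arrays and -0.11 to 0.23 on wild type arrays. Gnaz had the smallest difference, -0.63. KO and wild type overlapped for Gna12, Gnao1 and Gnaz, through KO 1 for Gna12 and KO 2 for the other two. Gnaz was also the member whose ratio did not pass under every setting: with males alone its adjusted p was 0.0556 (exact permutation test), and with the mean of a gene's probe sets it was 0.115.

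**Figure D4:**
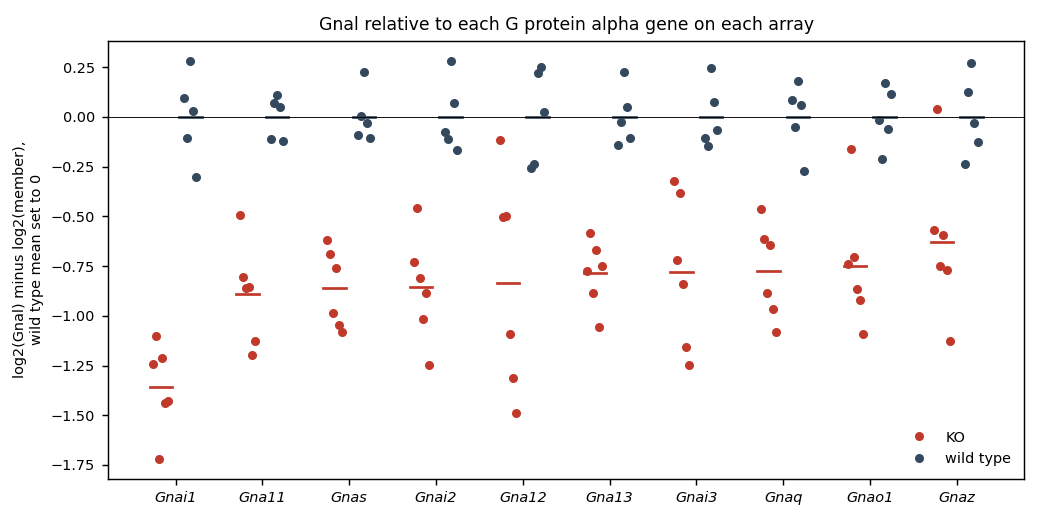
log2 ratio of Gnal to each member on each array, with the wild type mean of each member set to 0, KO in red to the left of wild type in blue, and lines for group means. All 10 KO means lie below 0, from -1.36 for Gnai1 to -0.63 for Gnaz.

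Several of the 10 genes lie beside another alpha subunit gene in the genome. Gnai1 neighbours Gnat3, the gustducin gene of taste and chemosensory cells, with 0 protein-coding genes between them, as Gnai3 does Gnat2 (cone transducin), Gnaq does Gna14 and Gna11 does Gna15. Gnai2 has 1 gene between it and Gnat1 (rod transducin). Gnat3 had no probe set that names it alone, and Gnat1 was too dim to test. The log2 changes were -0.094 for Gnat2, 0.038 for Gna14 and -0.43 for Gna15, a subunit of blood cells, and none passed (limma, adjusted p = 0.987, 0.992 and 0.838).

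The partners of the alpha subunits were read as lists, each gene by its brightest probe set. Of 15 tested beta and gamma subunits 1 passed: Gng13, a gamma subunit of OSN cilia that pairs with Golf, lay between 578.6 and 785.5 in KO and between 986.5 and 1418 in wild type and thus fell, with a log2 change of -0.82 ± 0.13 by limma (SE, adjusted p = 0.00512). The median over the list was 0.0026, against 0.047 over all probe sets, of which 0.211% were lower in KO. Gng13 and Gnal both lost their calls when the probe sets of each gene were averaged (-0.53 and -0.48), and did not pass with the replicate number as a block.

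Among the adenylyl cyclases and phospholipases C beta no gene passed. The adenylyl cyclases include enzymes that Gs and Golf stimulate and enzymes that Gi inhibits, though not every one is regulated in both ways. Of 9 that were tested, Adcy1 had 0.78 ± 0.19 (SE; limma, adjusted p = 0.100) and Adcy3, the cyclase of OSN cilia, had -0.37 ± 0.14 (limma, adjusted p = 0.544). The list median was 0.21. The 4 phospholipases C beta, effectors of Gq, had a median of 0.24, and those of smallest p were Plcb3 with 0.46 and Plcb4 with 0.29 (limma, adjusted p = 0.698 and 0.918).

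Regulators gave no call either. Of 17 tested RGS proteins, which speed GTP hydrolysis on alpha subunits, 12 had a positive estimate and the median was 0.094. Rgs7 had 0.42 and Rgs1 0.33 (limma, adjusted p = 0.766 and 0.875). Of 12 chaperones and modulators, Ric8b, which aids the folding of Golf, had -0.27 and Gprin3 had 0.67 (limma, adjusted p = 0.794 and 0.806), with a list median of 0.016. Of 6 receptor kinases and arrestins, Grk3 had 0.30 and Arrb2 had -0.19 (limma, adjusted p = 0.766 and 0.914), with a list median of 0.017. Gng13 was thus the only gene of these 6 lists that passed.

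**Figure D5:**
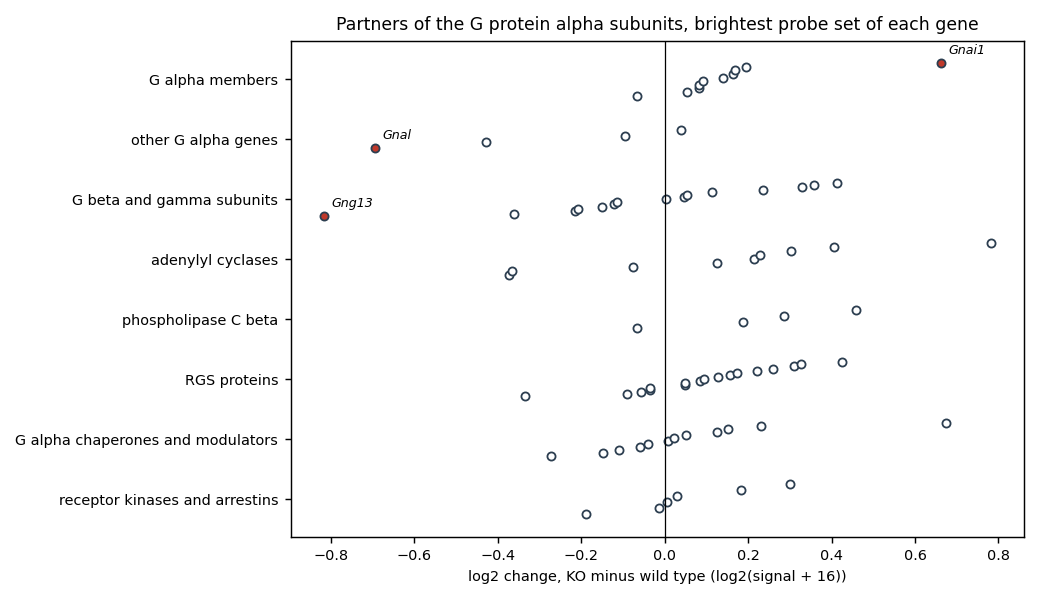
log2 change (KO minus wild type, on the log2(signal + 16) scale) of the brightest probe set of each gene, in rows for the 10 members, the other alpha subunit genes and 6 lists of partners; filled points passed the test (limma, adjusted p under 0.05). Gnai1 at 0.66, Gnal at -0.69 and Gng13 at -0.82 are the filled points.

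The arrays of a group also differed among themselves, and the members were compared in that respect after the group means were taken off. Over the 11 arrays the 45 pairs of members had a median Pearson r of 0.47, and 42 pairs were positive. Arrays share their library and scaling across all genes, so such values describe these arrays only. Pairs among other genes were not counted in this way, so the values are not shown to be particular to the family. The highest was Gnai3 with Gna12 (0.92), both of which were higher on arrays with higher poly-A control signal. The lowest was Gnai1 with Gna11 (-0.25), and Gnai1 had at most 0.48, with Gnaq. Outside the family, the genes most like Gnai1 in this measure, of 15132 compared, were Stard8 (0.95), Slc9a9, an endosomal sodium/proton exchanger (0.92), Sema5a, a semaphorin (0.91), and Zbtb21, a zinc finger gene, and Gm20045 (0.90 each). None of these 5 genes passed the test between KO and wild type. They are the highest of 15132 values over 11 arrays, and a search of that size yields high values by itself. Gm20045 was also dim, at a mean signal of 39.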

How the data were processed

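Total RNA from whole MOE of 6 KO and 5 wild type mice was amplified in a two-cycle labelling and hybridized to Mouse Genome 430 2.0 arrays. The deposited values are intensities on a linear scale, 1 per probe set and array, which the authors scaled to GAPDH in the GeneChip operating software (the submitters' processing notes name GCOS without a version). A difference in GAPDH itself would therefore move every other value. Groups and sex came from the sample labels. The replicate numbers follow the order of the arrays within each group and differ from the animal numbers in the sample titles. Of 45101 probe sets, the platform annotation gave 34958 exactly 1 gene symbol, 932 several and 9211 none, and only the first kind was assigned to a gene. The test used the 33662 probe sets that averaged a signal of at least 20, without the 64 control probe sets.

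Intensities were used as log2(signal + 16), which understates changes of dim probe sets. KO and wild type were compared over all probe sets with limma 3.58.1 in R 4.3.3 (lmFit, then eBayes with an intensity trend, no covariate), with Benjamini-Hochberg adjustment and a threshold of 0.05. The software named in the methods for testing was not used here. Precision is limited by the number of arrays, and no litter, dissection day or hybridization date was used. Log ratios of Gnal to each member were tested by exact permutation, two-sided, of the 462 divisions of the 11 arrays. The fit was tested on simulated data.

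The members and gene lists were chosen with earlier results of these data known. Named were every member by its brightest probe set, every member probe set that passed, in each list Gnal and the genes that passed or otherwise the 2 of smallest p, and the 5 genes most like Gnai1. A list of G12/13 effectors is not reported here. Values of other member probe sets, the genome neighbours and the markers were named after they were seen. Alternatives were other scalings (array median, quantile, hybridization controls), a pseudocount of 1 or 64, a minimum signal of 100 or none, no trend, array weights, males only, sex, poly-A control signal, the GAPDH 3'/5' ratio, a replicate block, the mean of a gene's probe sets, and leaving out each array. The planned division by poly-A controls, on their mean log2 signal, put 1 wild type array with 3 KO arrays. The division by their summed signal, used in the report, was added after the data were seen, as were the alternatives for Gnal and Gng13 themselves.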

Additional observations from a re-analysis of the deposited data

How the results depend on the processing

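The call of Gnai1 on its brightest probe set held in limma under each alternative except within arrays of like poly-A control signal, where the changes were 0.78 and 0.66 (higher and lower mean log2 signal, limma, adjusted p = 0.273 and 0.119) and 0.60 and 0.72 (summed signal, limma, adjusted p = 0.220 and 0.153). These comparisons hold fewer arrays, and that of the 0.78 has 1 wild type array, assumed to vary like the rest. The count of member probe sets that passed was 2. It was 1 without the trend, with sex as a covariate, with poly-A control signal (mean log2) as a covariate and, as a count of genes, with the mean of a gene's probe sets, it was 0 within each of the 4 sets of like poly-A control signal, and it ranged from 1 to 2 when single arrays were left out. The replicate numbers do not pair the mice: deviations of same-numbered arrays correlated between -0.28 and 0.0085, and 0 of 5 KO arrays correlated best with their own number. The replicate block leaves out KO 6, which has no wild type array of its number, and fits a term for each number. Calls lost under it cannot be told apart from this loss of precision. With the replicate block the count of member probe sets was 1, Gnai1 had 0.67 (limma, adjusted p = 0.0442) and 92 probe sets passed in all. Gnal (-0.68) and Gng13 (-0.78) did not pass under it, as they did not within arrays of like poly-A control signal. The count over all probe sets, 153 (53.6% higher), was 293 (41.0% higher) with quantile normalization, 317 (18.3% higher) with scaling to the hybridization controls, 345 with array weights, 6 and 53 within arrays of higher and lower mean poly-A control signal, 31 and 39 within those of higher and lower summed signal, and 85 to 213 without single arrays, with 85 without WT 3 and 97 without WT 5. The cause of these shifts was not tested.

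Signs turned only for members whose change did not pass, in 24 cases, with adjusted p-values of 0.724 or more. With scaling to the hybridization controls these were Gnas (-0.016), Gnai2 (-0.020), Gnai3 (-0.10), Gnao1 (-0.13), Gnaq (-0.10), Gna12 (-0.038) and Gna13 (-0.090), and with quantile normalization Gnao1 (-0.0042). With poly-A control signal as a covariate they were Gnai3 (-0.028), Gnao1 (-0.0094) and Gna12 (-0.052), and within its lower arrays Gnai3 (-0.17), Gnao1 (-0.13), Gnaq (-0.038) and Gna12 (-0.24). Within the lower summed signal they were Gnai3 (-0.083), Gnao1 (-0.030) and Gna12 (-0.10), and within the higher Gnaz (0.015) and Gna13 (-0.016). With the mean of a gene's probe sets they were Gnao1 (-0.0081) and Gna13 (-0.015), without WT 5 Gnao1 (-0.0065, with 0.15 at most without another single array), and without KO 2 Gnaz (0.043, with -0.15 at the lowest without another). The Gnal to member ratio passed for 9 or 10 members under each alternative run, and Gnaz was the exception in limma within the higher mean (-0.59, adjusted p = 0.0671) and lower summed poly-A control signal (-0.46, adjusted p = 0.0736).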
